A study of Mus musculus with 8 samples.

Results

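The genes described here are the signal transducers Stat3, Stat5a and Stat5b, the kinase Jak2, and the feedback inhibitors Cish, Socs1, Socs2 and Socs3. With them are the STAT-induced kinases Pim1 and Pim2. All were read in sorted bone marrow cells of mice with chronic myeloid leukemia (CML). The paper names these cells leukemic stem cells (LSCs). Stem cell and myeloid marker sums, given below, differed between the groups, and whether the name holds in each was not tested. The 10 genes were picked by symbol from the bulk RNA-seq count table of the sorted cells, which lists 15576 genes, and all 10 passed the filter on low counts among 11937 genes tested. Between CML mice treated with imatinib and untreated CML mice, Stat5a and Cish were lower in the treated group past the threshold (an edgeR adjusted p under 0.05), no gene of the 10 was higher past it, and the Stat3 message level did not pass the test. Among all tested genes, 3.93% were lower and 6.29% higher by this rule. Both calls were lost when 3 of the untreated libraries that were very alike (CML 1, CML 2 and CML 3) were summed to 1 library.

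The 8 libraries came from bone marrow of C57BL/6 mice with the BCR-ABL and SCL-tTA transgenes. In this model a stem cell enhancer of the Scl gene drives a transactivator that turns on BCR-ABL once tetracycline is withdrawn, so the oncogene is carried by both groups. The 4 CML libraries are from untreated mice, and the 4 CML-TKI libraries are from mice given imatinib, a tyrosine kinase inhibitor (TKI) of BCR-ABL, by gavage at 400 mg/kg on alternate days for 4 weeks, or for 30 days in another field of the labels. The dose stated in the paper's legend for these cells is lower than that in the labels, and which was used is not resolved. The labels give no age and do not say whether each library is a separate animal, so p-values measure only the spread between these libraries, which may be technical. The sort in the labels is Lin-Sca1+cKit+Flt3-CD150-CD48+ for all 8, whereas the paper sorts LSCs as CD48- and CD150+. Which of these gates gave the libraries was not resolved.

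Library totals ranged from 4939645 to 8620102 counts in CML and from 1041554 to 5104272 in CML-TKI, with 3 counts, used as the limit that a count of 0 allows, equal to 0.406 to 0.576 CPM (TMM-normalized counts scaled to library size) in CML and 0.566 to 3.27 CPM in CML-TKI. CML-TKI 1 stood between the groups on the first principal component, at -19.2 against -74.4 to -69.3 in CML, with the other 3 CML-TKI libraries on the far side and up to 118.8. CML 1, CML 2 and CML 3 were much closer to each other (chi-square per degree of freedom of 3.90 to 5.93) than any of them was to CML 5 (93.7 to 96.8). They were counted as separate libraries because the labels list them so, and the chi-square does not show whether they came from separate cell samples. Summed marker genes moved with treatment: granulocyte markers from 162 to 265 CPM in CML to 1454 to 8356 CPM in CML-TKI, with 10 of 11 tested called higher, and monocyte markers from 17.6 to 32.1 to 858 to 4648 CPM, with 8 of 8 called higher. Stem cell (HSC) markers summed to 862 to 1241 CPM in CML and 47.7 to 381 CPM in CML-TKI, with 3 of 9 tested called lower. Among them Slamf1, which encodes the CD150 on which the gates differ, differed between the groups. It was 28.8 to 37.5 CPM in CML and 0.616 to 6.53 CPM in CML-TKI (log2 fold change -3.42, edgeR adjusted p = 0.00797). Whether the groups were sorted alike was not tested. Megakaryocyte markers summed to 1506 to 1848 and 53.6 to 584 CPM, with 2 of 7 called lower. Erythroid markers summed to 117 to 165 CPM in CML and 52.5, 56.6, 23730 and 608 CPM in CML-TKI 1 to 4, with 0 of 6 tested called. Lymphoid markers summed to 0.384 to 2.03 CPM in CML and 6.98 to 190.5 CPM in CML-TKI, highest in CML-TKI 3, with 0 tested. Basophil and mast cell markers summed to 2.05 to 4.03 and 4.36 to 1156 CPM, highest in CML-TKI 4, with 1 of 1 tested called higher. Cd3e, Dntt and Mcpt8 had no count in any CML library. The part of these cell types in the results below was not tested, and in bulk samples fewer cells of a type and less RNA per cell cannot be told apart.

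Cytokine receptors lack a kinase of their own and signal through bound Janus kinases such as JAK2, which phosphorylate STAT proteins. Phosphorylated STATs pair, enter the nucleus and bind TTC and GAA half-sites spaced by a few bases. The CIS and SOCS proteins are induced by STATs and dampen the same receptors, and the PIM kinases are induced by STATs and promote survival. In CML, BCR-ABL activates STAT5 directly, and message levels do not report STAT phosphorylation.

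Because STATs are known to act on the feedback genes through such paired sites, the sequence near each gene start was read for them. The palindrome TTCNNNGAA, which reads the same on both strands, was searched in the RefSeq promoter windows (GRCm38.p6, 250 bases before to 50 bases after a start) of 9 members, with 12 windows among them. Socs2 has no window here. Of the 12 windows, those of Cish and Socs3 held the motif, while 8.30% of all 32851 windows held at least 1 and 0.457% held 2 or more. Cish held 2, at bases 1 to 9 and 12 to 20 from the start, and Socs3 held 1, at bases -154 to -146. These positions count from the start that each RefSeq window uses, which for Cish is the gene's outer end and for Socs3 lies inside the gene span given below, so the Socs3 motif is within that span. The motifs are in capitals, with the flanking bases, in chr9:107296654-107296683 on the plus strand and chr11:117969502-117969531 on the minus strand.
Cish: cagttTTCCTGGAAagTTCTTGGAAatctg
Socs3: agaaaccagccTTCTTAGAAgggagggggg
The match is a description of these letters, and STAT binding was not measured in these libraries.

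Stat5a, Stat5b and Stat3 lie next to each other on chromosome 11, with Stat5b at chr11:100780731-100859004 (minus strand), Stat5a at chr11:100859351-100885169 (plus strand) and Stat3 at chr11:100886806-100939594 (minus strand) in GRCm38. STAT5A and STAT5B are near-identical paralogs activated by BCR-ABL and by the IL-3 and GM-CSF receptors. STAT3 is activated by the IL-6 family and IL-10. Stat5a was 232, 216, 210 and 304 CPM in CML 1, 2, 3 and 5, and 76.4, 72.3, 57.7 and 133 CPM in CML-TKI 1 to 4. All 4 treated libraries were below all 4 untreated ones. Its level fell from 241 ± 43.2 to 84.9 ± 33.1 CPM (SD, n = 4 each), a log2 fold change of -1.49 ± 0.28 (SE; 95% interval -2.13 to -0.86; edgeR adjusted p = 0.0108). With CML 1 to 3 summed to 1 library it was -1.64 (adjusted p = 0.105). Over all genes tested, 13.1% had groups that did not overlap with the treated group lower, and 10.3% with it higher.

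Stat5b was 218, 211, 235 and 243 CPM in CML and 102, 132, 240 and 186 CPM in CML-TKI, so the groups overlapped, with CML-TKI 3 inside the range of the untreated libraries. Its log2 fold change of -0.47 ± 0.27 (95% interval -1.07 to 0.13) did not pass the test (edgeR adjusted p = 0.310). Stat3 was 222, 190, 202 and 164 CPM in CML and 210, 184, 237 and 171 CPM in CML-TKI, and the groups interleaved. Its log2 fold change was 0.04 ± 0.20 with a 95% interval of -0.39 to 0.48 (edgeR adjusted p = 0.915), so changes of either sign within that interval could not be told from none.

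Stat5a and Stat5b share sequence that the counting had to divide, and this bears on how the 2 values are read. Their deposited values were fractional in all 8 libraries, whereas their sum was a whole number within 0.025 in 8 of 8, a tolerance set after the values were seen. In GENCODE transcripts, 26.1% of the 50-base words in the Stat5a coding sequence also occur in Stat5b, and 16.8% of the 75-base words, against 0% shared with Stat3. There are 14 identical runs of at least 30 bases, the longest of 324 bases. The 152 bases of that run that lie in Stat5a exon 8 (chr11:100874339-100874490, plus strand) and Stat5b exon 7 (chr11:100798234-100798385, minus strand) are the same, and are shown because reads inside them cannot be placed.
Stat5a exon 8: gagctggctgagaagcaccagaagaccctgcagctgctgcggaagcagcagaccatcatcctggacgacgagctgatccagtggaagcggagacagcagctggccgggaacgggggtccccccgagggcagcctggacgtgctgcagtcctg
The Stat5a share of the sum was 51.5%, 50.6%, 47.2% and 55.6% in CML and 42.8%, 35.3%, 19.6% and 41.8% in CML-TKI. Every treated library was below every untreated one. Summed, the pair was 450, 428, 445 and 547 CPM in CML and 179, 204, 297 and 319 CPM in CML-TKI, and it fell by 0.91 on the log2 scale (SE 0.24; 95% interval -1.43 to -0.38; edgeR adjusted p = 0.0395), an alternative chosen after the data were seen. Without 1 library at a time the sum was called in 3 of 8 fits (the call was lost without CML 1, CML 2, CML 3, CML 5 or CML-TKI 2), with adjusted p from 0.0364 to 0.105, whereas Stat5a was called in 8 of 8, with adjusted p from 0.00485 to 0.0393.

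**Figure D1:**
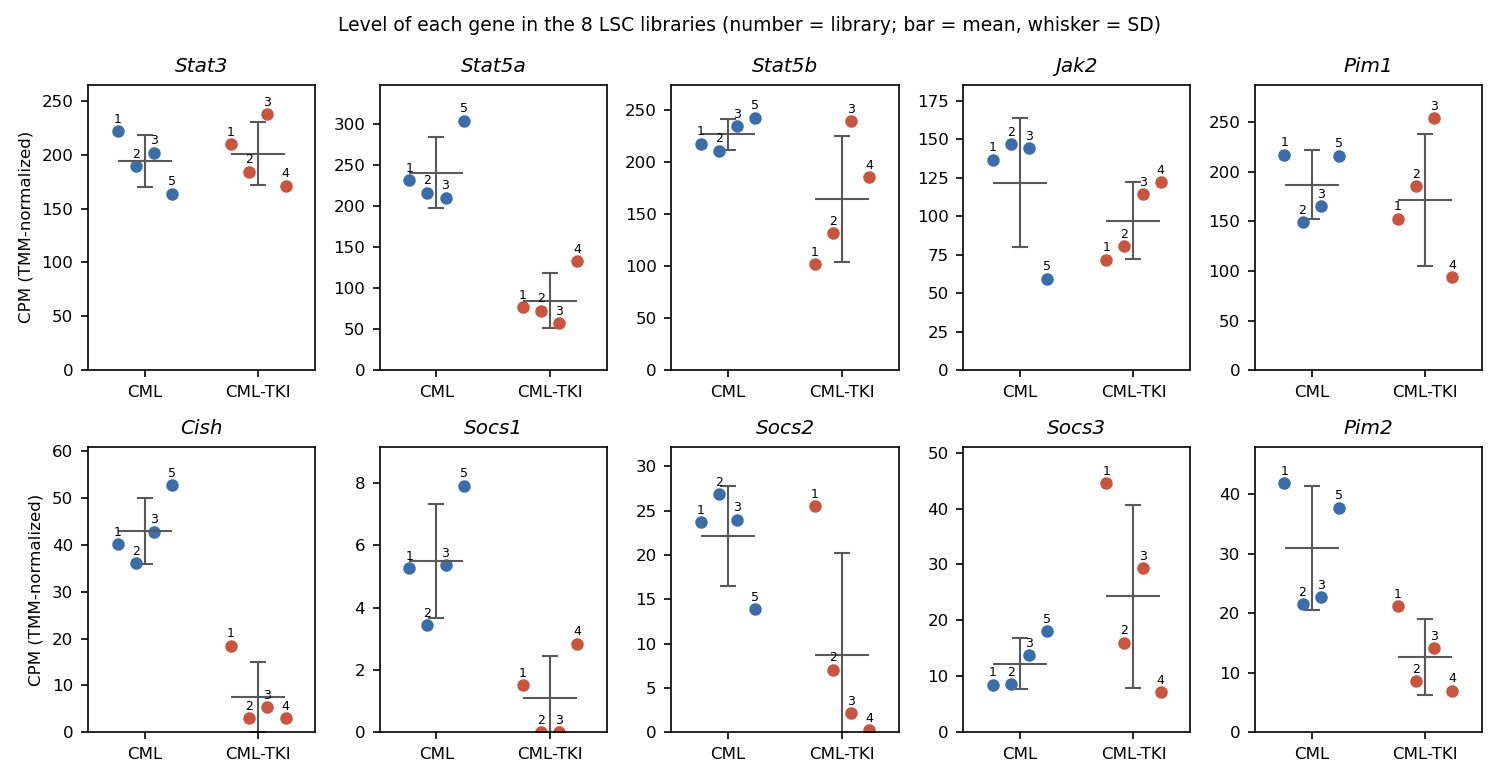
TMM-normalized CPM (y axis, from 0) of each of the 10 genes in the 4 CML and the 4 CML-TKI libraries, with the library number at each point, the mean as a bar and the SD as whiskers. Stat5a, Cish, Socs1 and Pim2 show no overlap between groups, while Stat3 and Pim1 interleave.

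Jak2, at chr19:29251803-29313095 on the plus strand, encodes the Janus kinase of the erythropoietin and GM-CSF receptors. It was 137, 147, 144 and 59.5 CPM in CML and 71.7, 80.4, 114 and 122 CPM in CML-TKI. CML 5 was lower than every treated library, and the other 3 untreated libraries were above all of them. The log2 fold change was -0.33 ± 0.32 (95% interval -1.04 to 0.38; edgeR adjusted p = 0.562). Without CML 5 it was -0.57 (adjusted p = 0.172).

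Cish, at chr9:107296659-107302784 on the plus strand, encodes CIS, a STAT5-induced SH2 protein that blocks STAT5 docking at receptors. It was 40.2, 36.0, 42.8 and 52.7 CPM in CML and 18.5, 3.08, 5.44 and 3.10 CPM in CML-TKI 1 to 4, from 297, 188, 223 and 386 counts and 98, 10, 5 and 12 counts. The treated libraries were all lower, and CML-TKI 1 was the highest of them. Its level fell from 42.9 ± 7.09 to 7.53 ± 7.39 CPM (SD, n = 4 each), and the log2 fold change was -2.46 ± 0.58 (95% interval -3.75 to -1.17; edgeR adjusted p = 0.0262). Leaving out CML-TKI 1 gave -3.58 with adjusted p = 2.9e-04, while leaving out any other library raised the adjusted p above the threshold, up to 0.0725. With CML 1 to 3 summed it was -2.61 (adjusted p = 0.180). CML-TKI 1 also held an HSC marker sum of 381 CPM against 47.7 to 79.5 CPM in the other 3 treated libraries, and granulocyte markers of 1454 against 7877 to 8356 CPM, and their part in the result was not tested.

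Socs1, at chr16:10783808-10785536 on the minus strand, encodes an inhibitor that binds JAK kinases directly. It was 5.28, 3.45, 5.38 and 7.92 CPM in CML (39, 18, 28 and 58 counts), and 1.51, 0, 0 and 2.84 CPM in CML-TKI (8, 0, 0 and 11 counts). The groups did not overlap. For CML-TKI 2 and CML-TKI 3, a count of 0 allows up to 0.924 and 3.27 CPM, so the second could lie near the untreated range. The log2 fold change of -2.12 ± 0.95 (95% interval -4.24 to 0.00039) did not pass the test (edgeR adjusted p = 0.194). It was -2.96 without CML-TKI 4, and fits that left out 1 library gave -2.96 to -1.69, none called (adjusted p from 0.113 to 0.349).

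Socs2, at chr10:95383903-95417321 on the minus strand, encodes a feedback inhibitor of growth hormone and other STAT5 receptors. It was 23.7, 26.8, 23.998 and 13.9 CPM in CML and 25.5, 7.08, 2.18 and 0.258 CPM in CML-TKI, from 135, 23, 2 and 1 counts in the treated libraries. CML-TKI 1 lay within the untreated range and the other treated libraries lay below all of it. With CML-TKI 1 in, the log2 fold change was -1.26 ± 0.89 (95% interval -3.25 to 0.72; edgeR adjusted p = 0.413), and without it -2.75 (adjusted p = 0.0371). The other 7 fits that left out 1 library did not call it, with values down to -0.85 and adjusted p up to 0.566.

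Socs3, at chr11:117966079-117970336 on the minus strand, is the inhibitor best known as a STAT3 target, and acts on the IL-6 and G-CSF receptors. It was 8.52, 8.63, 13.8 and 18.0 CPM in CML, and 44.5, 16.0, 29.4 and 7.24 CPM in CML-TKI. CML-TKI 4 was below every untreated library and 2 treated libraries were above all of them. The log2 fold change was 0.98 ± 0.55 (95% interval -0.24 to 2.20; edgeR adjusted p = 0.294), and no leave-one-out fit called it, with values from 0.45 (without CML-TKI 1) to 1.29 (without CML-TKI 4) and adjusted p from 0.121 to 0.604.

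Pim1 and Pim2 encode serine and threonine kinases that are constitutively active, so that their activity is known to follow their level. Pim1, at chr17:29490785-29496111, was 217, 149, 165 and 216 CPM in CML and 153, 185, 254 and 93.6 CPM in CML-TKI, and the groups overlapped in both directions. Its log2 fold change was -0.13 ± 0.30 (95% interval -0.80 to 0.54; edgeR adjusted p = 0.826). Pim2, at chrX:7878306-7883432, was 41.8, 21.5, 22.7 and 37.7 CPM in CML and 21.1, 8.62, 14.2 and 6.98 CPM in CML-TKI. Its groups did not overlap, although CML-TKI 1 and CML 2 were close. The log2 fold change was -1.28 ± 0.43 (95% interval -2.24 to -0.32; edgeR adjusted p = 0.0914), and without CML-TKI 1 it was -1.71 (adjusted p = 0.0185). The other 7 fits that left out 1 library did not call it, with adjusted p from 0.115 to 0.262.

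Of the 10 genes, 2 were called lower, against 3.93% of all tested genes, and none higher (edgeR, with 3 at an unadjusted p under 0.05, Stat5a, Cish and Pim2). Groups did not overlap, with the treated group lower, for 4 of them, against 13.1% of all tested genes, and 8 had a negative log2 fold change, as did 5969 of the 11937 genes tested. The median log2 fold change of the 10 was -0.86 and that of all genes tested was -0.00025. The main fit called 1220 of 11937 genes, and the alternatives called other numbers. DESeq2 called Cish, Pim2 and Stat5a, with 2420 of 15571 genes called. Limma-voom called Cish, Socs2 and Stat5a, with 2543 of 11937. Without CML 5 and CML-TKI 1, edgeR called Cish, Pim2 and Stat5a, 3 of the 10, with 2362 of 11825. Without any 1 library other than CML-TKI 1 it called 1, Stat5a, with 505 to 1198 genes called. With CML 1 to 3 summed it called 0, with 122 of 12564 genes called.

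**Figure D2:**
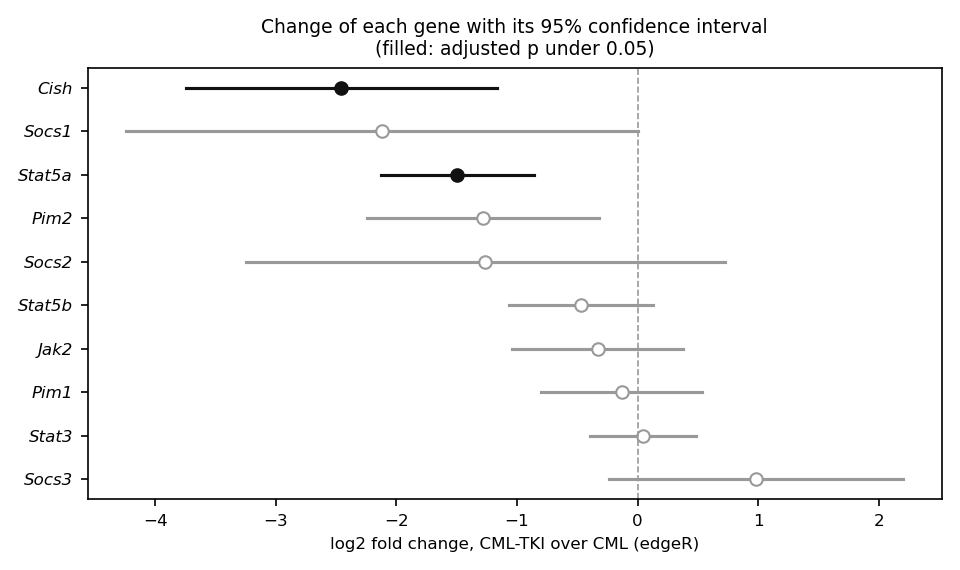
Log2 fold change of CML-TKI over CML (x axis) for each gene, with the 95% confidence interval of the edgeR fit, filled where the adjusted p was under 0.05. Cish at -2.46 and Stat5a at -1.49 are the filled points, and the interval of Stat3 spans 0.

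Ratios of 2 genes within a library do not depend on the scaling of libraries. Stat3 to Stat5a was -0.06, -0.19, -0.06 and -0.89 on the log2 scale in CML, and 1.46, 1.35, 2.03 and 0.36 in CML-TKI. All treated libraries were above all untreated ones, the means were -0.30 ± 0.40 and 1.30 ± 0.69 (SD, n = 4), and the difference of 1.60 had an exact two-sided permutation p = 0.0286, the smallest that 4 against 4 can give, and 0.0571 when adjusted over the 4 ratios. Stat5a to Stat5b was 0.09, 0.03, -0.16 and 0.32 in CML and -0.42, -0.87, -2.04 and -0.48 in CML-TKI. Here too the groups did not overlap, with a difference of -1.02 (exact permutation p = 0.0286, adjusted 0.0571), although the division of shared reads enters this ratio. Without CML-TKI 3 the difference was -0.66. With CML 1 to 3 averaged, the exact permutation p was 0.133 for this ratio and 0.0667 for Stat3 to Stat5a. That design can give no p below 0.0667. Stat3 to Stat5b differed by 0.58 (exact p = 0.0857, adjusted 0.0857) and Pim1 to Pim2 by 1.13 (exact p = 0.0571, adjusted 0.0762). For Pim1 to Pim2, CML-TKI 1 at 2.85 lay within the untreated values of 2.38 to 2.86.

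**Figure D3:**
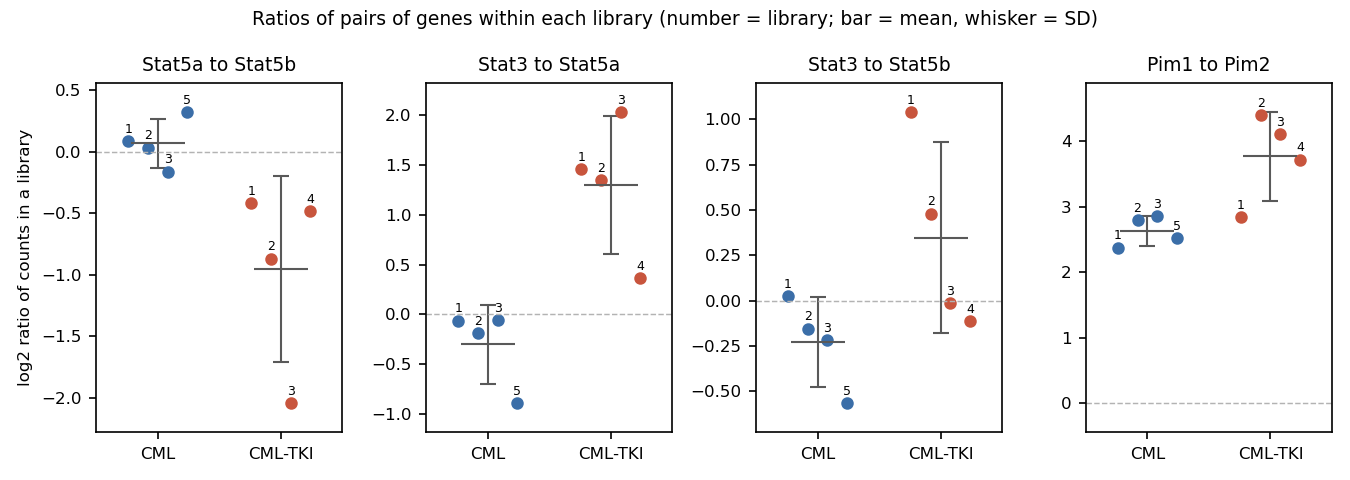
Log2 ratio of the counts of 2 genes within each library (y axis), with the library number at each point, the mean as a bar and the SD as whiskers. For Stat3 to Stat5a the treated libraries (0.36 to 2.03) are above the untreated ones (-0.89 to -0.06).

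Levels between genes were compared as CPM per kilobase of exon (GENCODE union exons). In CML, Stat5a at 60.6 ± 10.9 and Pim1 at 60.1 ± 11.2 were highest and overlapped. Stat5b (40.9 ± 2.64) was below both in every library, and Stat3 (31.2 ± 3.89) below Stat5b. Pim2 (27.8 ± 9.31) overlapped Stat3 and Jak2 (24.2 ± 8.29) overlapped Pim2. Cish (11.8 ± 1.94), Socs2 (8.20 ± 2.09), Socs3 (4.80 ± 1.79) and Socs1 (1.89 ± 0.63) followed, and of these the range of Socs1 alone lay wholly below that of its neighbour, while the range of Cish overlapped Jak2, Socs2 overlapped Cish and Socs3 overlapped Socs2. The GENCODE exons of Socs1 (2908 bases) exceed its RefSeq span (1729 bases), which lowers its value per kilobase. In CML-TKI the order was Pim1 (55.1 ± 21.5), Stat3 (32.2 ± 4.70), Stat5b (29.8 ± 10.9), Stat5a (21.4 ± 8.35), Jak2 (19.3 ± 4.94), Pim2 (11.4 ± 5.74), Socs3 (9.52 ± 6.38), Socs2 (3.24 ± 4.27), Cish (2.06 ± 2.03) and Socs1 (0.37 ± 0.47). In that group every pair of neighbours overlapped. Stat5a was at rank 1 in CML (rank 2 by the longest transcript) and rank 4 in CML-TKI, and Cish at rank 7 and rank 9.

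The pathway around the members was read from 7 lists of 76 genes, of which 67 were in the table and 60 were tested. In all, 12 were called higher and 3 lower in CML-TKI. The share of all tested genes called in this main fit was 6.29% higher and 3.93% lower. Without CML-TKI 1 the pathway calls numbered 28 in all, in a fit that called 2504 of 12147 genes. Without CML 1, CML 2 or CML 3 the pathway calls numbered 8 to 9, in fits that called 505 to 570 genes. With CML 1 to 3 summed, 0 pathway genes were called, and 122 of 12564 genes were. Of the other JAK kinases and STATs, 1 of 7 tested passed, Jak3, the kinase of the common gamma chain receptors, which was lower (184 to 87.3 CPM; log2 fold change -1.09, edgeR adjusted p = 0.0328), a call kept in 2 of 8 fits that left out 1 library, those without CML-TKI 1 or CML-TKI 3. The median of that list was -0.28. None of 9 other SOCS, PIAS and adaptor inhibitors passed. Socs5 had the smallest p (77.1 to 27.2 CPM, log2 fold change -1.45, edgeR adjusted p = 0.165), and without CML-TKI 1 it was -2.22 (adjusted p = 0.0147), when 2 genes of that list were called lower. None of 5 tyrosine phosphatases passed, with Ptpn1, a JAK2 phosphatase, at 98.1 and 188 CPM (log2 fold change 0.93, edgeR adjusted p = 0.0763, and 0.0224 without CML-TKI 1). Without CML-TKI 1, 3 of the 5 were called higher.

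Of the receptors of STAT3 and STAT5 cytokines, 6 of 16 tested were higher, none was lower, and the median log2 fold change was 1.22. Fits that left out 1 library called 5 to 8 higher, the fit without CML 5 and CML-TKI 1 called 8, and that with CML 1 to 3 summed called 0. Il10ra, the IL-10 receptor, rose by 4.89 on the log2 scale (edgeR adjusted p = 0.00371), from 1.64 ± 1.23 to 49.7 ± 34.5 CPM (SD, n = 4 each). Csf2rb, the shared beta chain of the IL-3, IL-5 and GM-CSF receptors, rose from 33.1 to 424 CPM (log2 fold change 3.68, adjusted p = 0.00369), and Csf2rb2, its near copy, rose by 2.55 (adjusted p = 0.0118). Without CML-TKI 2 the log2 fold changes were 3.07 and 1.87. Reads that the copies share could be split between them. Il6ra, the IL-6 receptor, rose from 21.5 to 129 CPM (log2 fold change 2.59, adjusted p = 0.00654). Il6st, the shared signaling chain of the IL-6 family, picked for mention with its values known, was 120 CPM in CML and 256 CPM in CML-TKI (log2 fold change 1.09, adjusted p = 0.0506, and called without CML-TKI 1). Of the ligands, 1 of 3 tested was called, Osm, higher (5.08 to 27.1 CPM, log2 fold change 2.36, edgeR adjusted p = 0.0479), with adjusted p from 0.0158 to 0.137 and the call kept in 2 of 8 fits that left out 1 library, those without CML-TKI 1 or CML-TKI 2. CML-TKI 3 was at 67.5 CPM and the other 3 treated libraries at 10.4 to 18.9 CPM, and without it the log2 fold change was 1.43.

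The other STAT5 target genes gave 3 higher of 10 tested and none lower, with a median of -0.40. Fits that left out 1 library called 0 to 3 higher, with 0 without CML 1 or CML 2 and 1 without CML 3, and 2 were called lower without CML-TKI 1. The 3 were Id1, an inhibitor of bHLH factors (log2 fold change 3.87, edgeR adjusted p = 0.0139), the repressor Bcl6 (2.81, adjusted p = 0.0155) and Osm, which is also on the list of ligands. The call of Id1 was lost without CML 1, CML 2 or CML 3 (adjusted p up to 0.0550), and without CML-TKI 1, at 83.2 CPM against 13.1 to 14.8 CPM in the other 3, the log2 fold change was 2.67. The call of Bcl6 was lost without CML 1 or CML 2 (adjusted p up to 0.0704). The other STAT3 target genes gave 3 higher and 2 lower of 11 tested, with a median of 1.47. Fits that left out 1 library called 2 (without CML 1 or CML 3) to 5 (without CML-TKI 1) higher and 1 to 2 lower, with 1 lower in every fit but those without CML-TKI 1 or CML-TKI 2. Cebpd rose by 3.70 and Cebpb by 2.79 (adjusted p = 0.00366 and 0.0110), 2 transcription factors of the myeloid lineage, and Birc5, a cell division protein, by 1.75 (0.0120, and up to 0.0509 without CML 1 or CML 3). Fos, an AP-1 subunit, fell by 2.28 (adjusted p = 0.0118), and Junb, another AP-1 subunit that was named with its values known, fell by 1.57 (adjusted p = 0.0417). The Junb call was kept without CML-TKI 1 or CML-TKI 2 and lost without any other single library (adjusted p up to 0.0984). The myeloid marker sums given above moved in the same libraries, and their part in these counts was not tested.

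**Figure D4:**
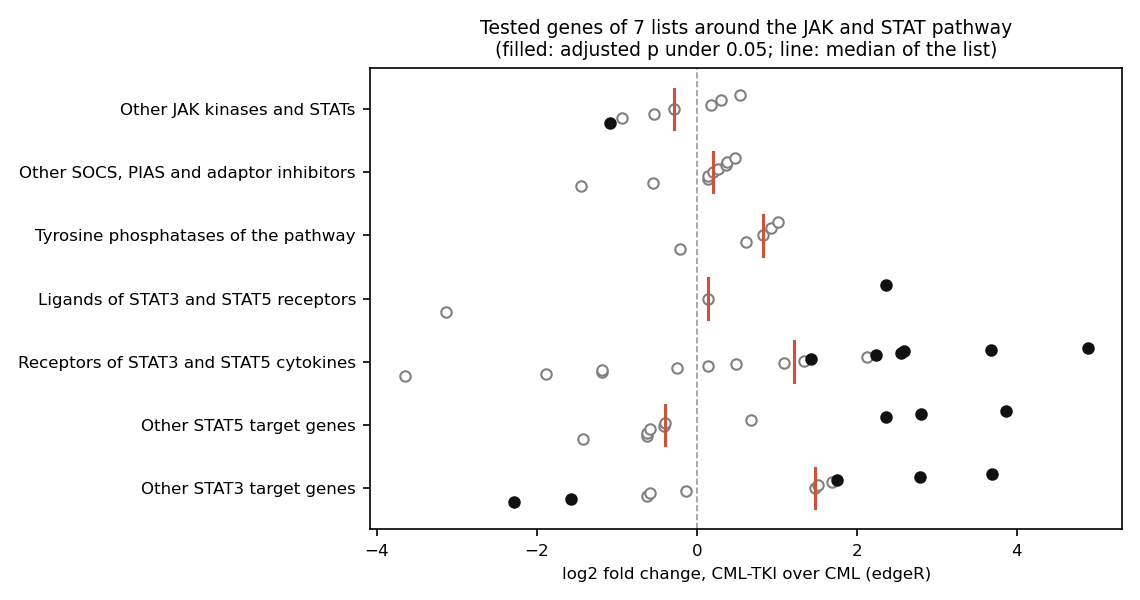
Log2 fold change of CML-TKI over CML (x axis, edgeR) for the tested genes of each list (y axis), filled where the adjusted p was under 0.05, with a line at the list's median. Receptors show 6 filled points, all above 0, and STAT3 targets show filled points on both sides of 0.

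For the members whose groups did not overlap, the 3 genes with the highest Pearson r of log2 CPM over the 8 libraries were listed among 9286 candidates. All of these values share the group difference and the depth of the libraries, so they are a description. For Stat5a they were Abca2 (0.994), Rps3a1 (0.987) and Foxo3 (0.986), and 2.41% of the candidates had an r over 0.9. Those of Cish were Myct1 (0.993), Dipk1b (0.991) and Cmas (0.990), those of Socs1 were Slc7a4 (0.994), Zfp523 (0.989) and Rtl6 (0.984), and those of Pim2 were Slc10a3 (0.975), Spryd4 (0.966) and Slc37a1 (0.954). The share of candidates over 0.9 was 3.04% for Cish, 2.40% for Socs1 and 0.937% for Pim2.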

How the data were processed

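Bulk RNA-seq of 8 libraries was used. Per the labels and the paper, RNA was purified by RNeasy Plus and made into Nextera XT libraries, and the authors aligned reads to mm10 with STAR 2.6.1d and quantified RefSeq transcripts in Partek Flow (Partek 8.0). The values the authors deposited are estimated counts, 1 per gene and library and not normalized, and they were rounded to whole numbers here. All columns of the table were mapped to the labels by group, with the column named CML 5 used as a CML library whose number no label gives.

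edgeR 4.0.16 in R 4.3.3 was run with TMM, filterByExpr (minimum count 10, minimum total 15) and its quasi-likelihood test (robust fit). The 11937 genes kept were adjusted together by Benjamini-Hochberg, and the threshold was 0.05. The standard error is the log2 fold change over the square root of F. CPM values are TMM-normalized. Ratios used a pseudocount of 0.5 and an exact permutation test over libraries. The gene-level test of the authors is not given in the sources used here. Floors cover counting error only, since reads without molecular identifiers are not independent molecules. Coordinates are RefSeq on GRCm38, and exon lengths and transcripts are GENCODE on GRCm38. The scripts were tested on simulated data.

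All 10 members were named, then at most 4 called genes of each list (largest absolute log2 fold change), the smallest p of a list with none, and 3 genes most like each member without overlap. The members and lists were chosen with earlier results of these data known. DESeq2 1.42.0, limma 3.58.1 (voom), other scalings, filters, thinning to 1041554 counts, leaving out libraries and the replicate block were tried. The K562, ChIP-seq and metabolite data were not used here, and 1 further result is not reported here.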

Additional observations from a re-analysis of the deposited data

Results flagged for a closer look

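The 10 genes and the 4 ratios in each group of libraries gave 28 groups of 4 values. In each, the gap of the extreme value to its nearest neighbour was divided by the range. It was compared with Dixon's 95% critical value for 4 values, which chance passes in about 1 of 20 groups if the values are independent. In CML, the libraries other than CML 5 were much closer to each other than to it. Their chi-square per degree of freedom was 3.90 to 5.93 among themselves and 93.7 to 96.8 to CML 5. The rate of 1 in 20 therefore cannot be assumed in CML, and the test cannot tell whether CML 5 stood out by more than chance. Jak2 in CML gave 0.922, because CML 5 was at 59.5 CPM and the others were between 137 and 147 CPM. The Stat3 to Stat5a ratio in CML gave 0.840, because CML 5 was at -0.89 and the others were between -0.19 and -0.06. CML 5 also had the highest share of the ribosomal RNA gene Rn45s, 38.3% of its counts against 20.2% to 23.1% in the other CML libraries, and its part in these values was not tested.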

How the results depend on the processing

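The main edgeR fit called 1220 genes, 2 of the 10 members and 15 pathway genes. The genes called numbered 2420 with DESeq2, 2543 with limma-voom, 122 with CML 1 to 3 summed to 1 library, 165 with the replicate block over the 6 libraries numbered 1 to 3, 589 in those libraries with no block, 2362 without CML 5 and CML-TKI 1, and 1958 at an adjusted p under 0.1. Members called were 0 with CML 1 to 3 summed, 1 with the block and 1 in those libraries with no block. Pathway genes called were 26 with DESeq2 and 26 with limma-voom, 0 with CML 1 to 3 summed, 1 with the block, 7 with no block, and 28 without CML 5 and CML-TKI 1. Leaving out each library in turn gave 505 to 2504 genes (505 without CML 1, 2504 without CML-TKI 1), 1 to 4 members and 8 to 28 pathway genes. The shared numbers do not pair the libraries: same-numbered deviations correlated at -0.022, 0.152 and 0.091. Leaving out CML 5 with CML-TKI 1, the 6 libraries with no block and the Stat5a and Stat5b sum were chosen after seeing the data.

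Stat5a was called in 19 of 20 alternatives, the exception being CML 1 to 3 summed (-1.64, adjusted p = 0.105), and Cish in 10 of 20. The ratio of Stat5a to Stat5b was -1.11 with CML 1 to 3 averaged (exact p = 0.133) and -1.10 with the block (exact p = 0.25), and -1.20 to -0.66 without single libraries. Stat3 to Stat5a was 1.80 (exact p = 0.0667) and 1.72 (exact p = 0.25), and 1.36 to 1.91 without single libraries. Stat3 to Stat5b ranged from 0.35 to 0.73 and Pim1 to Pim2 from 0.92 to 1.44 without single libraries. Stat3 turned to -0.089 with limma-voom, -0.10 with library totals without Rn45s and -0.042 without CML 5 and CML-TKI 1, and to -0.038 and -0.032 without CML 5 or CML-TKI 3, ranging from -0.04 to 0.12 without single libraries. Pim1 turned to 0.14 with the block, 0.16 in those libraries with no block, 0.00066 without CML 5 and CML-TKI 1, and 0.068 without CML-TKI 4, in a range of -0.37 to 0.07. The cause was not tested. Library totals without Rn45s moved the median of all genes by -0.14 and the calls to 602 higher and 591 lower, from 751 and 469. Of the pathway genes named beside the members, none turned sign under any alternative that tested it. In CML-TKI 3, the library with the lowest total, a count of 0 allows up to 3.27 CPM, which limits what can be said of Socs1 there.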
